A study of Homo sapiens with 18 samples.

Results

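C32 and A375M2 are human melanoma cell lines, and A375M2 is a metastatic derivative of A375. The comparison described here sets C32 cells against A375M2 cells, both transduced with a lentiviral GFP control vector. Its members are the 6 arrays of total RNA labelled with those lines and GFP, of 18 arrays in the series. The third C32 array equals the mean of the other C32 arrays and was left out. This left 5 arrays that were counted as independent, 3 of A375M2 GFP and 2 of C32 GFP. The other 12 arrays hold A375M2 with full-length PMEL, with short hairpin RNAs (shRNAs) against FHL2 and with shRNAs against NFYA, and C32 with the FHL2 shRNAs. They entered the fit only to share one estimate of the spread, except where the FHL2 shRNA arms of both lines are compared on their own arrays. FHL2 is a LIM-domain scaffold protein, PMEL forms the fibrils of the melanosome, and NFYA is a subunit of a CCAAT-binding transcription factor.

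The labels do not say which GFP vector of the series description the GFP arrays carry. Blasticidin selection, cell sorting and 3 separate experiments are described for A375M2. For C32 the sources used here give no such details. The spread between its arrays may therefore be technical. The p-values rest on the spread within groups, pooled over all arms in the fit and not taken from the C32 GFP arrays alone. They measure no more than that pooled spread. One label names the line of the A375M2 arrays as A375.

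Melanoma arises from melanocytes, cells of neural crest origin that are specified by MITF and SOX10 and make pigment in melanosomes. Melanoma lines range from differentiated, pigment-expressing states to undifferentiated, invasive states in which pigment genes are low and matrix, receptor and cytokine genes are high. The comparison describes how C32 differs from A375M2 where FHL2 is not targeted.

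The deposited values were log2 signals, and 10940 of 11232 genes with a single-symbol probe set were tested. C32 GFP replicate 3 lay within an SD of 0.00669 of the mean of the other C32 GFP arrays, taken over 13428 probe sets. All other arrays were 0.088 to 0.141 from the mean of their own group's remaining arrays. A375M2 GFP replicates 1 and 2 shared 1219 identical values, and A375M2 GFP replicate 3 shared 0 with either. It shared 221 with C32 GFP replicate 3, the array left out, and the reason was not tested. Without replicates 3 of A375M2 GFP and A375M2 PMEL, 9220 genes were called, 4703 of them at 2-fold. The A375M2 GFP arrays had medians of 8.13 to 8.18 and the C32 GFP arrays of 8.09 and 8.10. RNA spike-in probe sets, which report RNA added before labelling, averaged 7.15 (SD 0.03, n = 3) in A375M2 GFP and 9.37 (SD 0.28, n = 2) in C32 GFP. Hybridisation spike-ins averaged 12.12 and 12.79, 18S probe sets 12.52 and 13.28, and the 3′ minus 5′ actin value 0.61 and 1.08, in the same order. These values were higher in C32 GFP, but each was lower in C32 than in A375M2 in the FHL2 shRNA arms. RNA spike-ins averaged 5.96 to 7.15 in every group other than C32 GFP. The part of these controls in the results was not tested. Values under log2 4 lie at the bottom of the scale and have no order, so a difference from such a value has no exact size.

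The lines differed at most genes. With limma and Benjamini-Hochberg adjustment over all genes tested, 9394 of 10940 genes (85.9%) passed an adjusted p of 0.05, 4229 of them higher (38.7%) and 5165 lower (47.2%) in C32 GFP. At 2-fold or more, 4715 genes (43.1%) were called, of which 2007 (18.3%) were higher and 2708 (24.8%) lower in C32 GFP. These shares are the background against which each gene group below is read. The median difference, C32 GFP minus A375M2 GFP, was -0.10 on the log2 scale, with quartiles of -0.99 and 0.68. Centring each array on its median raised the median difference by 0.20 and gave 2465 higher and 2246 lower genes at 2-fold, so that 52.4% of called genes were higher instead of 45.0%. Quantile normalization raised the median difference by 0.14, with 2346 higher and 2283 lower genes, and 51.4% of called genes higher. A 4-fold difference was reached by 1870 genes and a 16-fold difference by 496. In 64 genes the C32 GFP mean was log2 8 or more while every A375M2 GFP array was under 4, and in 147 genes the reverse held. The arrays of the lines did not overlap at 9840 genes (89.9%).

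**Figure D1:**
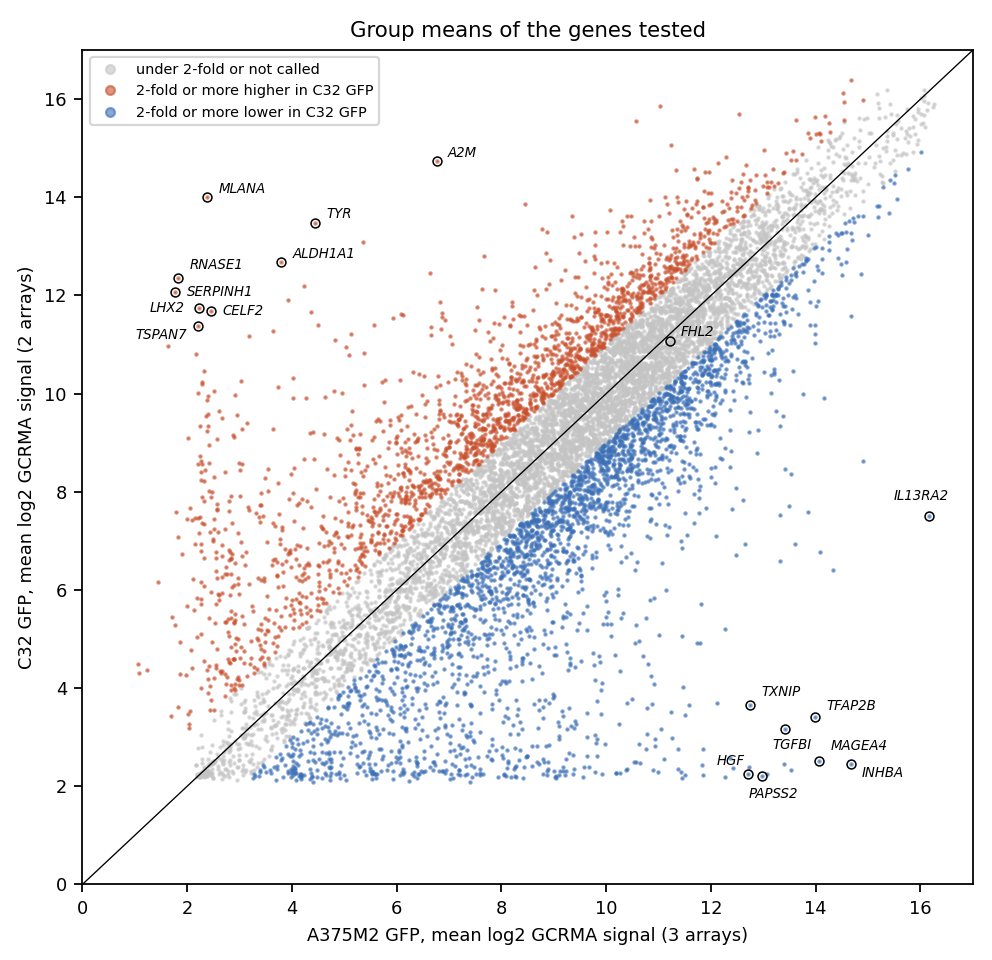
Mean log2 signal of each of 10940 genes in the C32 GFP arrays (vertical axis, 2 arrays) against the A375M2 GFP arrays (horizontal axis, 3 arrays), with genes called at 2-fold or more coloured by direction and named genes marked. The 2007 higher and 2708 lower genes lie on both sides of the diagonal, with MLANA and INHBA near the corners.

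The genes that the series targets in other arms were first examined. FHL2 read 11.27, 11.17 and 11.18 in the A375M2 GFP arrays and 11.12 and 11.03 in the C32 GFP arrays. The C32 values lay just under those of A375M2, and the difference of -0.13 (SE 0.16) was not called (limma, adjusted p = 0.45). It was called when the GFP arrays alone were fitted (limma, adjusted p = 0.0463). The SE of 0.16 includes the spread of FHL2 in the arms that target it. Its SD was 0.05 in A375M2 GFP and 0.06 in C32 GFP. In the FHL2 shRNA arms it was 0.14 in A375M2 and 0.46 in C32. NFYA read 9.40, 9.65 and 9.72 against 9.51 and 9.64, with overlapping arrays and a difference of -0.02 (SE 0.11; limma, adjusted p = 0.90). Its most variable probe set instead gave -1.39 (limma, adjusted p = 2.95e-08), and the mean of all its probe sets -0.58 (limma, adjusted p = 2.24e-06). None of its 4 probe sets above log2 4 was higher in C32 GFP (-1.39 to -0.02). The chosen probe set gave 0.18 with centred arrays, not called, so NFYA has no settled size or direction here. PMEL read 5.78, 5.37 and 5.55 in A375M2 GFP and 7.53 and 7.70 in C32 GFP. It was higher in both C32 arrays, by 2.04 (SE 0.14; limma, adjusted p = 1.54e-10), and both lines were under the 8.95 of the A375M2 arm given PMEL.

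The largest rises went from low A375M2 GFP values, under log2 4 for most of the genes below, to high C32 GFP signals. MLANA, a melanosome antigen recognised by T cells, read 2.33, 2.36 and 2.45 in A375M2 GFP and 13.98 and 14.02 in C32 GFP, a difference of 11.62 (SE 0.09; limma, adjusted p = 7.41e-24). TYR, the tyrosinase that starts melanin synthesis, read 4.42, 4.29 and 4.60 against 13.42 and 13.55, a difference of 9.05 (SE 0.15; limma, adjusted p = 2.30e-19). The lines were far apart at both pigment genes, and no array of one line came near those of the other. ALDH1A1, a retinaldehyde dehydrogenase, was higher by 8.89, and RNASE1, a secreted ribonuclease, by 10.52. The homeobox gene LHX2 rose by 9.54, the RNA-binding protein gene CELF2 by 9.23 and the tetraspanin gene TSPAN7 by 9.18. ALDH1A1, RNASE1, LHX2, CELF2 and TSPAN7 were under 4 in every A375M2 GFP array. A2M, a broad protease inhibitor, rose by 7.98 from a mean of 6.76, and ERAP2, an aminopeptidase that trims peptides for MHC class I, by 7.96 from 4.24. The collagen chaperone SERPINH1 rose by 10.30, the collagen chain gene COL1A2 by 7.99 and the matricellular gene THBS2 by 7.74 from 5.22 to 5.60.

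The largest falls were genes with strong signal in A375M2 GFP, and all of them but IL13RA2 were under log2 4 in both C32 GFP arrays. INHBA, the activin A subunit, read 14.65, 14.75 and 14.61 in A375M2 GFP and 2.15 and 2.76 in C32 GFP, a difference of -12.21 (SE 0.11; limma, adjusted p = 3.86e-23). MAGEA4, a cancer-testis antigen, read 13.93, 14.29 and 13.99 against 2.26 and 2.77, a difference of -11.55. The arrays of each line held together at both genes, and the gap between the lines was many times the spread within them. TFAP2B, a neural crest transcription factor, fell by 10.59, and the pyruvate dehydrogenase kinase gene PDK4 by 11.21. TGFBI, a secreted matrix protein, fell by 10.25, and TAC1, the substance P precursor, by 10.95. LINC01419, a long non-coding RNA, fell by 10.83. PAPSS2, which makes the sulfate donor for proteoglycans, fell by 10.77 and its neighbour ATAD1, a mitochondrial AAA protein, by 10.34. TXNIP, an inhibitor of glucose uptake, fell by 9.09. HGF, the ligand of the MET receptor, read 12.55, 12.81 and 12.76 in A375M2 GFP and 2.24 in both C32 GFP arrays, a difference of -10.46. IL13RA2, a decoy receptor for interleukin-13, was among the brightest genes of A375M2 GFP at 16.14 to 16.17 and read 7.35 and 7.66 in C32 GFP, a difference of -8.65.

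More lineage regulators and pigment genes were higher than lower in C32 GFP. Among 26 lineage regulators tested, 12 were higher and 6 lower in C32 GFP at 2-fold or more, with a median difference of 0.79. Among 31 members of the pigment and melanosome list, which also holds other genes such as BCL2A1, 16 were higher and 4 lower at 2-fold. Their median was 1.20. With each array centred the counts were 13 and 6, and 17 and 4. The background was 18.3% higher and 24.8% lower.

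The master regulators MITF and SOX10 had high signal in both lines. MITF read 14.20, 14.31 and 14.20 in A375M2 GFP and 14.92 and 14.99 in C32 GFP, a difference of 0.72 (SE 0.06; limma, adjusted p = 1.93e-09). SOX10 read 12.75, 12.79 and 12.74 against 12.84 and 12.92, a difference of 0.12 (SE 0.04; limma, adjusted p = 0.0186) that its other probe set gave as -1.07. It was not called without A375M2 GFP replicate 3 (0.11) or without C32 GFP replicate 2 (0.08). IRF4, a pigmentation transcription factor, was higher in both C32 arrays at 11.30 and 11.29 against 7.46 to 7.57. SNAI2, which acts in melanoblast migration, rose by 2.66, the stem cell factor SOX2 by 2.63 and the MITF relative TFEC by 3.57 from 2.76. In the other direction, SOX9 read 11.97, 11.81 and 11.95 in A375M2 GFP and 7.68 in both C32 GFP arrays, a fall of 4.23. SOX5 fell by 3.50 and ZEB1, a factor of the mesenchymal state, by 2.67.

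**Figure D2:**
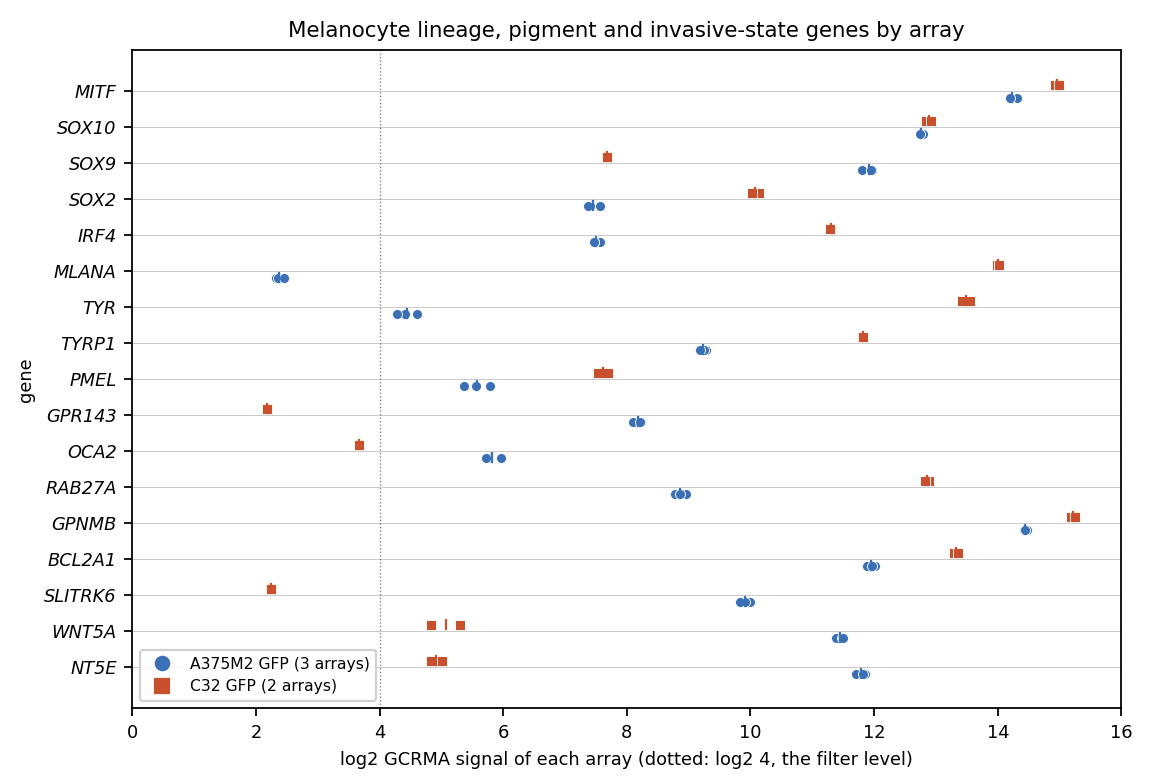
Log2 signal (horizontal axis) of lineage, pigment and invasive-state genes (rows) in each of 3 A375M2 GFP arrays (circles) and 2 C32 GFP arrays (squares), with group means as short lines. MITF and SOX10 lie close together in both lines, MLANA and TYR are high in the C32 arrays alone, and GPR143 and SOX9 are higher in A375M2.

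Pigment genes differed in opposite directions within the same program. TYRP1, which acts after tyrosinase, read 9.28, 9.25 and 9.18 against 11.81 and 11.82, a rise of 2.58. RAB27A, which tethers melanosomes at the cell edge, read 8.78, 8.95 and 8.85 against 12.88 and 12.83, and the biogenesis factor HPS4 rose by 3.28. GPR143, a melanosomal receptor, read 8.24, 8.09 and 8.22 in A375M2 GFP and 2.18 in both C32 GFP arrays. OCA2, a melanosome transporter, fell by 2.15, the small GTPase RAB38 by 1.33 and QPCT by 1.26. GPNMB, a melanosome glycoprotein, rose by 0.77 (SE 0.05; limma, adjusted p = 2.00e-11).

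MITF binds the M-box, an element known from the tyrosinase promoter, and promoters of pigment genes that differed in opposite ways are shown for it. The letters TCATGTG were searched on both strands in the 250 bases before each gene start in RefSeq sequences of GRCh38.p14; the element contains the E-box core CATGTG. It occurred in 840 of 27195 genes (3.09%) and in 187 of 9051 tested genes (2.07%). Of the 22 members of the pigment list with a promoter sequence, 5 held it (22.7%), namely TYR, TYRP1, GPNMB, GPR143 and BCL2A1. BCL2A1 is an apoptosis regulator, so this is a share of the list and not of pigment genes alone. Capitals mark the element or its reverse complement in the windows below, each written along the strand of its gene.
TYR: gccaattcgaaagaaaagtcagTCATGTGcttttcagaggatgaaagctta
TYRP1: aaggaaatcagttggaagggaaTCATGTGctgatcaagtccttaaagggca
GPNMB: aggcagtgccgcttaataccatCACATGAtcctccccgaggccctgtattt
GPR143: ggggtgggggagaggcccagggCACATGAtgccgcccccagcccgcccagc
The TYR window is chr11:89177748-89177798 on the plus strand, with its element 105 bases before the start. The TYRP1 window is chr9:12693218-12693268, plus strand, at 145 bases. The GPNMB window is chr7:23246691-23246741, plus strand, at 62 bases, and GPR143 is chrX:9765880-9765930, minus strand, at 61 bases. GPNMB and GPR143 each hold another match, at 123 and 33 bases. The element was shared by genes that differed in opposite ways: TYR was 9.05 higher in C32 GFP, and GPR143 was at 2.18 there. A match of letters is a description, not a binding site or a cause.

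Markers of other cell types were examined beside the lineage genes. The 9 melanocyte markers tested summed to 5.42e+04 to 5.57e+04 in linear signal in A375M2 GFP and 1.09e+05 to 1.14e+05 in C32 GFP. Of 5 keratinocyte and epithelial markers tested, KRT18 (11.35 to 11.50 against 2.17) and the desmosome gene DSP (a fall of 6.19) were lower, SFN rose by 2.05 and the other 2 were not called. Their summed signal was 3047 to 3386 in A375M2 GFP and 141 to 188 in C32 GFP, and their median difference of -0.23 was 0.39 with quantile normalization. Of 3 immune markers tested, PTPRC, the leukocyte antigen CD45, read 2.27, 2.28 and 2.27 against 8.61 and 8.65, and FCER1G rose by 4.83. LYZ averaged 3.74 and 3.70, under log2 4, and was called in opposite directions when C32 GFP replicate 1 (0.95) or replicate 2 (-1.03) was left out. Fibroblast markers, led by COL1A2 up and LUM down, summed to 2895 to 3304 and 4530 to 5111. The endothelial list had KDR alone, higher by 3.36 in C32 GFP. The part of these genes in the results was not tested.

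Neural crest and glial genes split between the lines, beside 18.3% higher and 24.8% lower at 2-fold over all genes tested. Of 16 tested, 5 were higher and 6 lower at 2-fold, with a median of -0.18 that became 0.02 when arrays were centred. MBP, a myelin protein, read 1.63, 1.63 and 1.62 in A375M2 GFP and 11.10 and 10.83 in C32 GFP, a rise of 9.34 (SE 0.10; limma, adjusted p = 9.96e-22). The neural adhesion gene L1CAM rose by 5.05, the proteolipid family gene GPM6B by 2.91 and the fatty acid binding protein gene FABP7 by 1.89. SLITRK6 read 9.99, 9.91 and 9.84 against 2.24 in both C32 GFP arrays. COL9A3 fell by 3.83, the nuclear receptor gene RXRG by 2.06 and the growth cone gene GAP43 by 3.40.

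More genes of the undifferentiated, invasive melanoma state were lower than higher in C32 GFP. Of 28 tested, 8 were called higher and 19 lower, 6 and 11 of them at 2-fold. Their median was -0.64 (-0.26 with quantile normalization). Over all genes tested, 38.7% were called higher and 47.2% lower, 18.3% and 24.8% at 2-fold. WNT5A, a non-canonical WNT ligand of invasive melanoma, read 11.38, 11.48 and 11.49 against 5.31 and 4.83, a fall of 6.38 (SE 0.11; limma, adjusted p = 4.18e-19). NT5E, the ectonucleotidase CD73, fell by 6.87 and THBS1 by 6.73. The receptor AXL, a marker of this state, was low in both lines at 4.74, 4.97 and 5.24 against 3.78 and 4.72. Its difference of -0.73 was called, but not without C32 GFP replicate 1 (-0.26), with quantile normalization (-0.16), or when the GFP arrays alone were fitted. Caveolin genes went the other way, CAV2 by 2.09 and CAV1 by 1.87, as did S100A2 by 3.02 and the guidance ligand SLIT2 by 2.53.

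Extracellular matrix genes differed in both directions between the lines, beside 18.3% higher and 24.8% lower at 2-fold over all genes tested. Among 42 interstitial matrix and matricellular genes, 8 were higher and 23 lower in C32 GFP at 2-fold, with a median of -1.31 (-0.86 with quantile normalization). FN1, fibronectin, read 10.95 to 11.12 in A375M2 GFP and 15.82 and 15.89 in C32 GFP, a rise of 4.83, and led the higher genes with SERPINH1, COL1A2 and THBS2. LUM, the proteoglycan lumican, fell by 8.55, the microfibril gene MFAP2 by 7.72, and TGFBI and THBS1 by the values above. Of 15 basement membrane genes, 2 were higher and 6 lower, with a median of -0.56. The paired type IV collagen genes COL4A1 and COL4A2 fell by 4.79 and 3.99, nidogen NID1 by 5.16 and the laminin chain LAMC1 by 2.16, whereas LAMA1 rose by 2.83 and COL4A5 by 2.03.

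Secreted proteases also differed in both directions. Over all genes tested, 18.3% were higher and 24.8% lower at 2-fold. Among 38 proteases and inhibitors, 6 were higher and 15 lower at 2-fold, with a median of -0.42 (-0.08 with quantile normalization). The gelatinase MMP2 read 9.25, 9.03 and 9.21 against 3.27 and 3.58, a fall of 5.74. The bone cathepsin CTSK fell by 7.87, the antiangiogenic serpin SERPINF1 by 6.69 and the urokinase receptor PLAUR by 3.61. The collagenases MMP1 and MMP8 rose by 4.25 and 3.29, and MMP14, which activates pro-MMP2 at the cell surface, rose by 2.40. Integrin and focal adhesion genes (26 tested) had 3 higher and 7 lower at 2-fold, the lower share near that of all genes. The fibronectin receptor chain ITGA5 read 8.66, 8.46 and 8.49 against 4.32 and 4.72. ITGA5 thus fell by 4.02 while fibronectin itself rose, and FERMT1 fell by 5.17, ITGA1 by 2.77 and ITGB8 by 2.08.

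TGF-beta and WNT signalling genes differed at ligands, receptors and targets. The shares over all genes tested were 18.3% higher and 24.8% lower at 2-fold. Of 35 TGF-beta family genes, 9 were higher and 15 lower at 2-fold, with a median of -0.37 (-0.17 with centred arrays). Among ligands, INHBA fell as above and BMP2 by 6.75, and TGFB3 rose by 3.81 from a mean of 3.75. The receptor TGFBR1 rose by 3.80 and the co-receptor TGFBR3 by 3.11. The BMP target ID1 read 13.56, 13.45 and 13.47 against 7.68 and 7.74, a fall of 5.78 (SE 0.04; limma, adjusted p = 2.68e-24), and the BMP antagonist CHRDL1 fell by 8.05. Of 23 WNT genes, 7 were higher and 9 lower. The secreted modulators DKK3 and DKK1 fell by 6.09 and 3.42 and the receptor FZD3 by 3.28, and the membrane ligase RNF43, which removes WNT receptors, rose by 3.66 from 3.04. Of 25 YAP and TEAD targets, 2 were higher and 8 lower, among them CCN2, a connective tissue growth factor, which fell by 2.44.

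Growth factor ligands and receptors differed in both directions, at shares near those of all genes tested (18.3% higher and 24.8% lower at 2-fold). Of 33 receptor kinase genes and ligands, 7 were higher and 10 lower at 2-fold, with a median of -0.13 that became 0.07 with centred arrays. TGFA, a ligand of the EGF receptor, read 14.07, 14.08 and 14.10 in A375M2 GFP and 6.54 and 7.03 in C32 GFP, a fall of 7.30 (SE 0.10; limma, adjusted p = 1.67e-20). EGF, which binds the same receptor, rose by 2.49. PDGFA read 2.27, 2.39 and 2.32 against 7.76 and 7.86, whereas PDGFD fell by 5.25 and the receptor PDGFRA by 3.27. VEGFA rose by 1.83 and its receptor KDR by 3.36.

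Downstream of the receptors, MAPK output genes went in both directions, beside 18.3% higher and 24.8% lower over all genes tested. Of 25 tested, 8 were higher and 6 lower at 2-fold, with a median of 0.25 (0.45 with centred arrays). The immediate early genes FOS and EGR1 rose by 4.14 and 2.46, and CCND1, cyclin D1, by 1.42. Among feedback inhibitors, DUSP6, an ERK phosphatase, rose by 1.41 and SPRY1 by 2.78, while SPRY4 fell by 1.60. FOSL1 fell by 1.75 and the kinase gene MAP2K2 by 1.60. Of 20 PI3K pathway genes, 4 were higher and 4 lower, with PIK3R1, the regulatory subunit, 2.03 higher, and TSC2, INPP4B and the mTOR inhibitor DEPTOR lower by 2.67, 2.03 and 3.10.

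The inhibitors of the G1 phase differed at the CDKN2 locus. CDKN2B, the inhibitor p15, was 2.42 in all 3 A375M2 GFP arrays and 8.50 and 8.66 in C32 GFP, a rise of 6.16 (SE 0.10; limma, adjusted p = 1.31e-19). MTAP, the adjacent metabolic gene that is often lost with it in tumours, went the other way, at 11.38, 11.37 and 11.39 against 8.36 and 8.19, and CDKN2A fell by 1.79. Of 28 G1 and p53 pathway genes, 7 were higher and 6 lower, with a median of -0.01 that became 0.20 with centred arrays. Over all genes tested, 18.3% were higher and 24.8% lower at 2-fold. The p53 targets CDKN1A, BAX and TP53I3 fell by 1.99, 1.70 and 2.17, and CCNE2 and RBL1 rose by 3.51 and 2.66. Of 27 apoptosis regulators, 7 were higher and 6 lower. The death receptor TNFRSF10A read 9.19, 9.30 and 9.24 against 4.95 and 4.87, a fall of 4.33, and BCL2L11, a BH3-only killer, rose by 2.39.

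Replication and mitosis genes were higher in C32 GFP. Of 26 G1/S and replication genes, 13 were higher and 1 lower at 2-fold, with a median of 1.05, and of 33 G2/M genes 14 were higher and 0 lower, with a median of 0.91. The replication licensing factor CDC6 read 6.28, 6.06 and 6.30 against 9.70 and 9.76, GINS2 rose by 3.29 and CDT1 by 2.44. FOXM1, which drives mitotic genes, read 6.55, 6.14 and 6.09 against 8.71 and 8.87, and the proliferation marker MKI67 rose by 2.39. TPX2, a spindle assembly factor, differed by -0.26 and was not called with centred arrays. With each array centred, 17 replication and 22 mitosis genes were higher at 2-fold. The cell cycle homology region TTTGAA occurred before the start of 16 of 27 mitosis genes with a promoter sequence (59.3%), against 12.7% of tested genes.

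**Figure D3:**
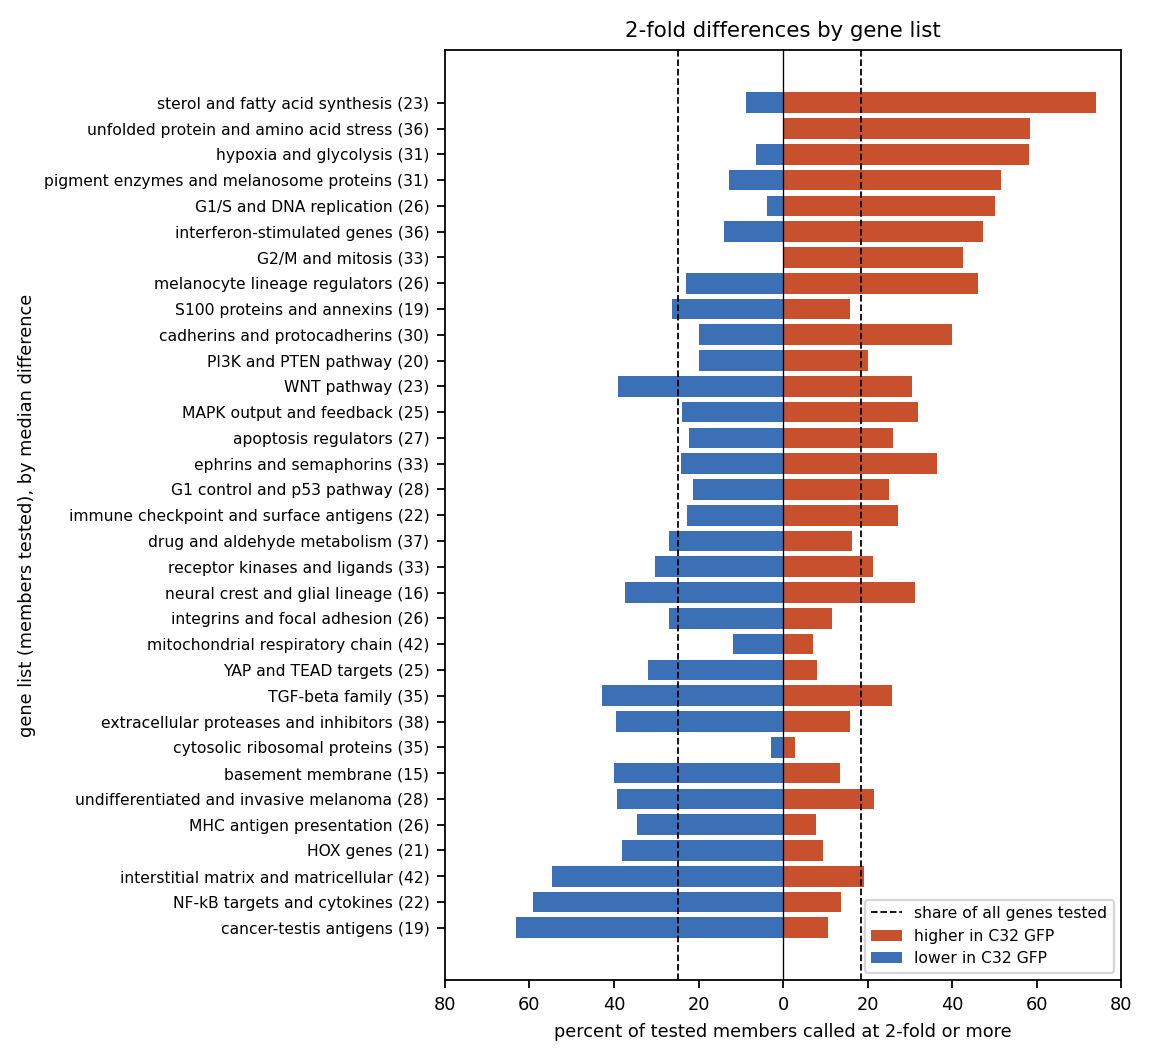
Percentage of the tested members of each gene list (rows) called 2-fold or more higher (right) or lower (left) in C32 GFP than in A375M2 GFP, with the shares over all 10940 genes (18.3% higher and 24.8% lower) as lines. Unfolded protein, sterol and cell cycle lists extend to the right, and cancer-testis, NF-kB and matrix lists to the left.

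Cancer-testis antigens were mostly lower in C32 GFP. These are germline genes that tumours express from hypomethylated promoters and that T cells can recognise. Of 19 tested, 2 were higher and 12 lower at 2-fold, with a median of -3.35, or -1.59 when values under log2 4 were set to 4. CTAG2 read 11.81, 11.81 and 11.89 in A375M2 GFP and 2.45 and 3.09 in C32 GFP, MAGEA1 fell by 8.17 and MAGEC2 by 8.05. PRAME differed by 0.32, from 12.62 to 12.95. The 2 higher genes were TKTL1, a transketolase-like gene of the X chromosome, at 2.42, 2.35 and 2.45 against 9.33 and 9.35, and SSX1, which rose by 1.48. MAGE probe sets can share sequence between paralogs, so single members of that family are uncertain.

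Of 26 genes of MHC antigen presentation, 4 were called higher and 22 lower, 2 and 9 of them at 2-fold, with a median of -0.71. Among class II genes, HLA-DOA read 8.25, 8.24 and 8.32 against 2.39 and 2.42, HLA-DMB fell by 2.47, the invariant chain CD74 by 1.80 and HLA-DRA by 1.39. B2M, the class I light chain, differed by -0.09, which was not called without C32 GFP replicate 1 (-0.07) and was 0.11 with centred arrays. The immunoproteasome subunit PSMB9 fell by 1.84. MICB and MICA, ligands of the activating receptor NKG2D, rose by 2.13 and 1.17.

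Interferon-stimulated genes were divided. Of 36 tested, 17 were higher and 5 lower at 2-fold in C32 GFP, with a median of 0.92. IFIT3 read 8.29, 8.61 and 8.54 against 11.41 and 11.39, IFIT2 rose by 3.28 and IFIT1 by 2.02; these RNA-binding effectors lie side by side in the genome. XAF1 rose by 4.92 from 3.54, SAMD9L by 3.33, SAMD9 by 2.65 and ISG15, a ubiquitin-like modifier, by 1.71. Lower genes included both dynamin-like antiviral genes. MX2 read 10.94 to 11.05 in A375M2 GFP and 2.29 in both C32 GFP arrays, a fall of 8.71, and its neighbour MX1 fell by 2.58. The other lower genes at 2-fold were IFI35, CMPK2 and ISG20, which fell by 2.54, 1.77 and 1.06.

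The promoters of rising and falling interferon genes were compared because they are known to share the interferon-stimulated response element. GAAA and GAAAC with 2 bases of any kind between them were searched on both strands and occurred in 210 of all genes (0.772%), in 76 tested genes (0.84%) and in 17 of 29 interferon genes with a promoter sequence (58.6%). Capitals mark the element or its reverse complement.
ISG15: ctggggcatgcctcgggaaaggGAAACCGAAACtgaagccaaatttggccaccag
IFIT1: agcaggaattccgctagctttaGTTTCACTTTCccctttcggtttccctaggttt
SAMD9: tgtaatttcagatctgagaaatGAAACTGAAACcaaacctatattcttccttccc
MX1: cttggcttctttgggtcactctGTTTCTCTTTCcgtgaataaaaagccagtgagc
The windows are chr1:1013368-1013422 (plus) for ISG15, chr10:89392484-89392538 (plus) for IFIT1, chr7:93118083-93118137 (minus) for SAMD9 and chr21:41431831-41431885 (plus) for MX1. The element starts 107, 117, 136 and 197 bases before the gene, in that order, and ISG15 holds an overlapping match at 113 bases. It was held by ISG15, IFIT1 and SAMD9, which rose, and by MX1, which fell.

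Inflammatory cytokines were lower in C32 GFP. Of 22 NF-kB targets and cytokines, 3 were higher and 13 lower at 2-fold, with a median of -1.55, or -0.58 when values under log2 4 were set to 4. CXCL8, a neutrophil chemokine, read 10.99, 11.37 and 11.16 in A375M2 GFP and 7.11 and 7.14 in C32 GFP, a fall of 4.05. CXCL1 fell by 5.75, the cytokine IL24 by 4.51 and the hyaluronan-binding TNFAIP6 by 4.06. PTGS2, the inducible cyclooxygenase, rose by 6.08 from 5.04, 5.00 and 5.35 to 11.24 and 11.18, and SOD2 and ICAM1 rose by 2.16 and 1.64.

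Genes of the unfolded protein response stood higher in C32 GFP almost throughout. This response senses misfolded protein in the endoplasmic reticulum and raises chaperones through ATF6 and XBP1 and amino acid genes through ATF4. Of 36 tested, 21 were higher and 0 lower at 2-fold, and 31 were called higher and 4 lower at any size, with a median of 1.43. HSPA5, the chaperone BiP, read 14.64, 14.69 and 14.71 in A375M2 GFP and 16.39 and 16.41 in C32 GFP, a rise of 1.72. PDIA4, a disulfide isomerase, read 12.55, 12.49 and 12.59 against 15.64 and 15.74, a rise of 3.15 (SE 0.05; limma, adjusted p = 8.73e-20). The stress gene NUPR1 rose by 4.14, the lipoprotein receptor gene VLDLR by 3.96, the cystine transporter SLC7A11 by 2.65 and asparagine synthetase ASNS by 1.86. PSPH, of serine synthesis, fell by 0.47, and TRIB3 differed by -0.26, which was not called with centred arrays.

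Chaperone promoters carry the endoplasmic reticulum stress response element, shown here because the chaperones rose together. CCAAT and CCACG with 9 bases of any kind between them were searched on both strands and found in 25 of 27195 genes (0.0919%), in 14 tested genes (0.155%) and in 6 of 31 unfolded protein genes with a promoter sequence (19.4%): XBP1, HSPA5, HSP90B1, CALR, CANX and PDIA6. Capitals mark the whole element or its reverse complement.
HSPA5: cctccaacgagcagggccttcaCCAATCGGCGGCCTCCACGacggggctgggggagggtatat
HSP90B1: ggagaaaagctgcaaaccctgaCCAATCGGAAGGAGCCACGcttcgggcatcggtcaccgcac
PDIA6: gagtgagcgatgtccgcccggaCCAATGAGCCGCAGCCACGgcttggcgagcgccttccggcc
XBP1: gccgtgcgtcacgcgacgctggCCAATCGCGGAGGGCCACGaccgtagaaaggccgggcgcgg
CALR: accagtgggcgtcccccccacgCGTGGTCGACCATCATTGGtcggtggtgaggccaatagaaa
The windows are chr9:125241369-125241431 (minus) for HSPA5, chr12:103930194-103930256 (plus) for HSP90B1, chr2:10812831-10812893 (minus) for PDIA6, chr22:28800581-28800643 (minus) for XBP1 and chr19:12938362-12938424 (plus) for CALR. HSP90B1 holds another match nearer its start. In C32 GFP these genes were higher by 1.72, 0.67, 0.59, 0.63 and 1.74 in the order shown, and CANX by 0.56. All 6 were called higher, as were 31 of the 36 tested genes of the list and 38.7% of all genes. Only HSPA5 and CALR reached 2-fold. PDIA4, with a larger difference, does not hold these letters in its window, which says only that.

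Hypoxia, glycolysis and lipid synthesis genes were also higher. Of 31 hypoxia and glycolysis genes, 18 were higher and 2 lower at 2-fold, with a median of 1.31. The glucose transporter SLC2A1 read 5.11, 4.75 and 4.70 against 9.16 and 9.04, NDRG1 rose by 3.69, the hypoxia-inducible factor EPAS1 by 3.66 and the kinase PDK1 by 3.11. The 2 lower genes, PDK4 and TXNIP, were among the largest falls of all genes, at 11.21 and 9.09. Of 23 sterol and fatty acid genes, 17 were higher and 2 lower, with a median of 1.49. HMGCS1 read 8.69, 8.67 and 8.67 against 12.02 and 11.98, and INSIG1, MSMO1 and SQLE rose by 3.21, 3.11 and 3.10. FASN and PMVK fell by 1.03 and 1.18.

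Ribosomal protein genes fell together by small amounts. Of 35 tested, 34 were called lower and 1 was called higher, with a median of -0.49. Centring the arrays left 30 called lower, with a median of -0.28. Only 1 member in each direction reached 2-fold. RPS6 read 16.02, 16.03 and 16.01 against 14.87 and 14.99, and RPS23, the member that rose, read 4.63, 4.74 and 4.63 against 8.68 and 8.25. Ribosomal protein genes have many processed copies, so single members are uncertain. Among 42 respiratory chain genes, 3 were higher and 5 lower, with CYCS, cytochrome c, 3.54 higher and NDUFA10 1.72 lower.

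Position and adhesion genes differed in both directions, beside 18.3% higher and 24.8% lower at 2-fold over all genes tested. Of 21 HOX genes, which record position along the body axis, 2 were higher and 8 lower, with a median of -0.73 (-0.41 with quantile normalization). HOXD10 read 8.06, 8.15 and 8.13 against 2.47 and 2.26, and HOXD4, of the same cluster, read 2.62, 2.78 and 2.77 against 8.64 and 8.17. HOXB8 and HOXB9 fell by 3.65 and 3.81 and HOXB7, their neighbour, rose by 1.31. Of 30 cadherin and related adhesion genes, 12 were higher and 6 lower: CNTN4 rose by 6.29 from 2.88, and CNTN3 fell by 7.91. Of 33 ephrin and semaphorin genes, 12 were higher and 8 lower, with a median of 0.00 that became 0.20 with centred arrays. The plexin PLXNC1 read 4.10, 4.80 and 4.62 against 11.33 and 11.48, and EPHA3 and SEMA3A fell by 4.23 and 4.72.

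Surface antigens, metabolic enzymes and S100 genes had no common direction, at shares near those of all genes tested (18.3% higher and 24.8% lower at 2-fold). Of 22 checkpoint and surface antigens, 6 were higher and 5 lower. The CD27 ligand CD70 read 11.25, 11.26 and 11.25 against 3.00 and 2.95, a fall of 8.28, and the fatty acid translocase CD36 rose by 6.40 from 3.73. Of 37 drug and aldehyde metabolism genes, 6 were higher and 10 lower. CYP1B1, MGST1 and ALDH1L2 fell by 5.52, 4.92 and 4.13, and the efflux pump ABCC2 rose by 3.77. Of 19 S100 and annexin genes, 3 were higher and 5 lower, with S100A4 2.53 higher and S100A16 4.32 lower.

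Line differences were not spread evenly over the chromosomes, which were taken from RefSeq for GRCh38.p14. On chromosome 7, 43.0% of 530 genes were higher in C32 GFP at 2-fold, and 74 genes were lower, with a median of 0.72. Chromosome 19 was the reverse, with 7.01% of 656 genes higher, 41.5% lower and a median of -0.73. Chromosome 20 had 7.17% of 293 genes higher and 34.8% lower. With each array centred, chromosome 7 held 47.4% higher and 12.6% lower, and chromosome 19 8.69% and 34.0%. The FHL2 shRNA arms share no array with the GFP arms. There chromosome 7 held 47.5% higher and 13.2% lower, and chromosome 19 11.7% and 30.6%, beside 21.0% and 26.1% over all genes tested. The lower share of chromosome 19 was thus nearer that of all genes than in the GFP arms. Chromosomes X, 11 and 9 had larger lower shares there, at 35.2%, 35.0% and 34.3%. Chromosome 8 changed order, with 15.4% higher and 33.1% lower in the GFP arms and 25.6% and 22.6% in the FHL2 shRNA arms.

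**Figure D4:**
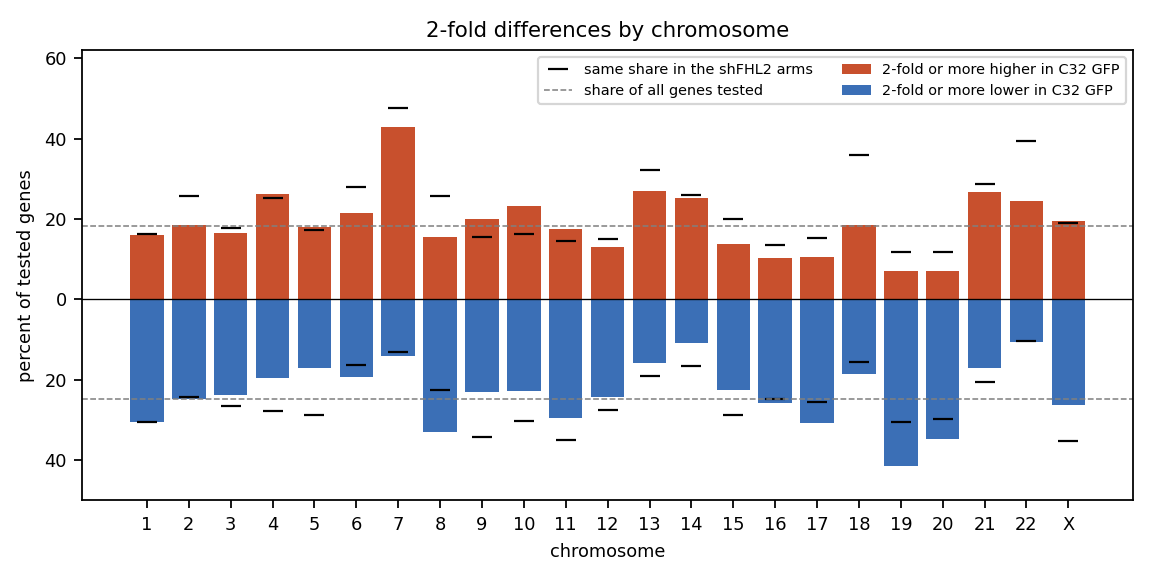
Percentage of the tested genes of each chromosome that were 2-fold or more higher (bars up) or lower (bars down) in C32 GFP than in A375M2 GFP. Short black lines give the same shares in the FHL2 shRNA arms, where 21.0% of all genes were higher and 26.1% lower. Dashed lines give the shares over all genes in the GFP arms (18.3% and 24.8%). Chromosome 7 reaches 43.0% higher, and chromosomes 19 and 20 have 7.01% and 7.17% higher.

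Some neighbouring genes differed together. Over all genes tested, 18.3% were higher and 24.8% lower at 2-fold. How many runs of neighbours these shares would give in any order was not tested. Among 10914 placed genes, 46 runs of 4 or more measured neighbours (241 genes) were all 2-fold or more higher, and 79 runs (382 genes) all lower, in C32 GFP. Chromosome 7 held 17 of the higher runs. The lower runs were spread over more chromosomes, with 13 each on chromosomes 1 and 19, 11 on chromosome 8 and 10 on chromosome 11. The longest, on chromosome 7, ran over 11 genes from INSIG1 and EN2 through LMBR1, UBE3C, DNAJB6 and NCAPG2 to DYNC2I1, with a median of 1.78 and 9 of the 11 also 2-fold higher in the FHL2 shRNA arms. Another of 10 genes ran from ASNS through TRRAP to ARPC1B with a median of 2.09, and a further run of 8 genes held EZH2, the histone methyltransferase, and PDIA4. Some genes named above for their function, INSIG1, ASNS, PDIA4 and COL1A2 among them, thus lie in runs of higher neighbours. The longest lower run held 9 genes from BUD13 to CEP164, with a median of -2.45. Not all runs repeated in the FHL2 shRNA arms. Of the lower run from PIH1D1 to IRF3, 1 of 6 genes was 2-fold lower there, and of that from TIGD5 to ZNF623, 0 of 4.

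Some short runs held large differences. NUTM2A-AS1, MINPP1, PAPSS2 and ATAD1, measured neighbours on chromosome 10, had a median difference of -9.98, and all 4 were under log2 4 in both C32 GFP arrays. MINPP1, PAPSS2 and ATAD1 averaged 11.85, 12.98 and 12.72 in A375M2 GFP, whereas NUTM2A-AS1 averaged 3.98 there. In the FHL2 shRNA arms the same 4 genes differed by a median of -10.81. The chemokines CXCL8, CXCL1, CXCL3 and CXCL2 formed a lower run with a median of -4.08, and MAGEA4, MAGEA10, MAGEA12 and MAGEA6 another with -6.57. LIPA, IFIT2, IFIT3 and IFIT1 formed a higher run with a median of 2.47. The death receptors TNFRSF10B and TNFRSF10A lay in a lower run of 8 genes with a median of -2.31.

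The lines were also measured with FHL2 shRNAs, on 6 other arrays, which gives the line difference a second time under another treatment. There 9865 genes (90.2%) were called and 5152 (47.1%) differed by 2-fold, 2299 (21.0%) higher and 2853 (26.1%) lower in C32. Of the 2007 genes higher in the GFP arms, 1314 (65.5%) were higher in the FHL2 shRNA arms, which is 57.2% of the genes higher there, and 78 (3.89%) were lower. Of the 2708 lower genes, 1704 (62.9%) were lower again, 59.7% of the genes lower there, and 71 (2.62%) were higher. The line difference itself differed between arms at 8772 genes (80.2%) by limma's interaction test. At 2-fold or more, 3715 of all 10940 genes tested (34.0%) did so. In 720 genes (6.58%) all 5 C32 arrays lay above all 12 A375M2 arrays by log2 1 or more, and in 1043 (9.53%) below. Ranked by the smaller of both differences, with no floor, the first genes were MLANA, LHX2, CELF2, RNASE1 and TYR upward and INHBA, MAGEA4, TAC1, PAPSS2 and ATAD1 downward. Values under log2 4 have no order, so the order of these genes is not settled.

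**Figure D5:**
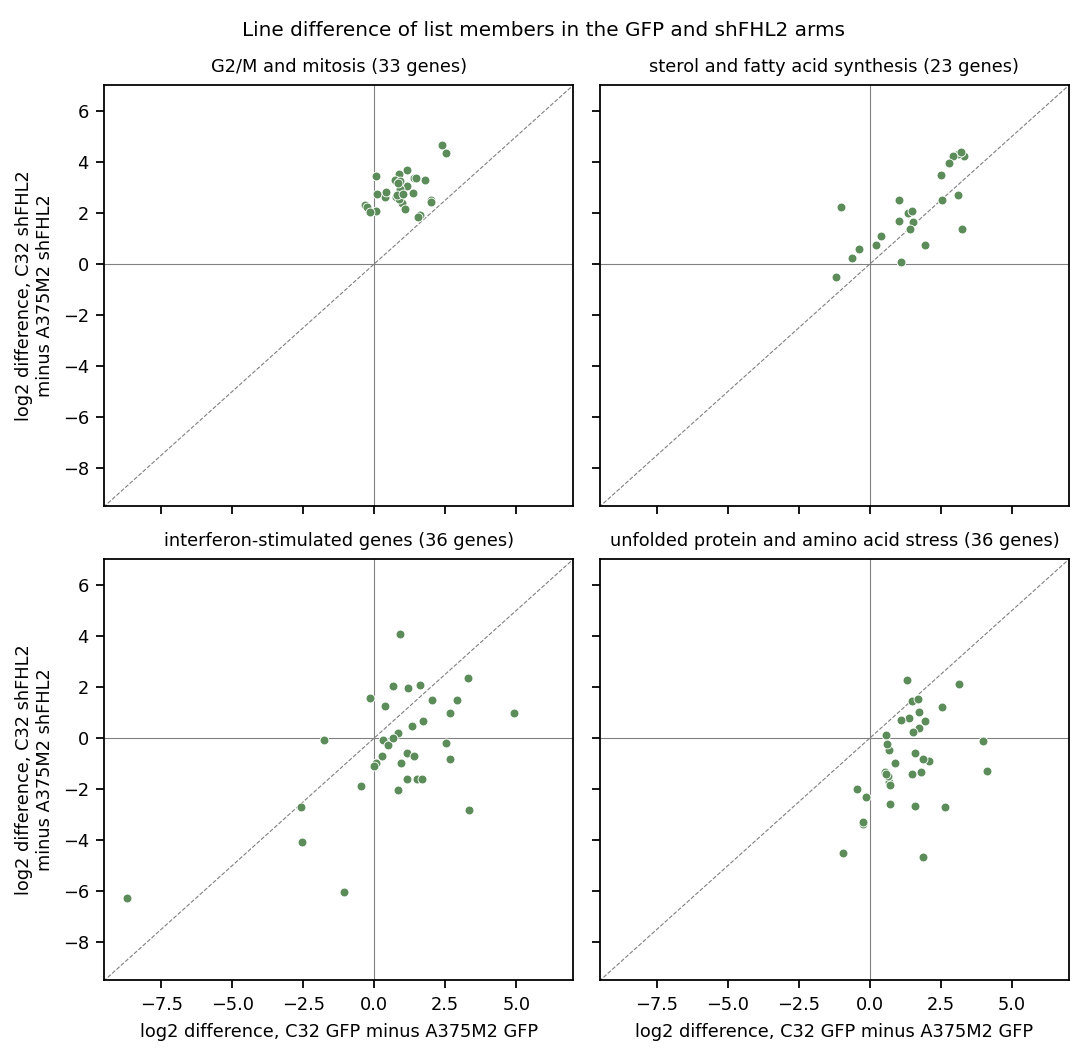
Log2 difference between C32 and A375M2 of each member of 4 gene lists, in the GFP arms (horizontal axis) and in the FHL2 shRNA arms (vertical axis), with equal values on the dashed line. Mitosis (33 genes) and sterol genes (23) lie mostly above 0 on both axes, whereas unfolded protein genes have a median of 1.43 on the horizontal and -0.94 on the vertical axis.

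Some gene groups kept their direction between the arms and others did not. Cancer-testis antigens had medians of -3.35 in the GFP arms and -5.22 in the FHL2 shRNA arms, and NF-kB targets of -1.55 and -2.63. Sterol genes stood at 1.49 and 2.02, hypoxia genes at 1.31 and 1.11, pigment genes at 1.20 and 1.70 and mitosis genes at 0.91 and 2.76. The unfolded protein list went from 1.43 to -0.94, with 6 of its genes higher and 17 lower in the FHL2 shRNA arms, and interferon genes from 0.92 to -0.25. ASNS differed by 1.86 in the GFP arms and -4.67 in the FHL2 shRNA arms, an interaction of -6.53. FASN differed by -1.03 and 2.24, and CNTN4 by 6.29 and -4.18.

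Several of the largest differences were not the same size or direction in the FHL2 shRNA arms. SERPINH1 was under 4 in the A375M2 GFP and PMEL arms, at 1.77 in each, and read 10.47 and 10.44 in the A375M2 FHL2 and NFYA shRNA arms. HGF was at 12.71 and 12.43 in the A375M2 GFP and PMEL arms and at 2.24 in both shRNA arms of that line. TXNIP was 12.45 to 13.17 in the A375M2 arms, 3.66 in C32 GFP and 11.64 in the C32 FHL2 shRNA arm. MITF differed by 0.72 in the GFP arms and stood at 10.05 in A375M2 and 14.20 in C32 with the FHL2 shRNAs, an interaction of 3.43. The part of the array controls in this contrast was not tested: RNA spike-ins averaged 6.57 in A375M2 and 5.96 in C32 in the FHL2 shRNA arms, in the opposite order to the GFP arms.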

How the data were processed

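Gene expression was measured on Affymetrix 3′ arrays. Per the submitters' processing notes, the authors used GCRMA, and the deposited values are log2 signals. No version of GCRMA is stated in the sources used here. The table of 23416 probe sets and 18 arrays was used as deposited, and held 0 missing values and 0 columns without a sample. GCRMA corrects background by probe sequence and sums probes to a probe set, which leaves low signals without an order.

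From these values, probe sets with a single symbol (20264, with 58 controls, 995 with several symbols and 2099 with none left out) were retained if at least 3 arrays had log2 4 or more. Each gene took its probe set with the highest mean, and symbols were updated by Entrez gene ID for 20254 probe sets. The filter and the choice of probe set used all 18 arrays, C32 GFP replicate 3 among them. A gene with signal in C32 GFP alone could thus pass the filter through that array. Group means over 17 arrays were compared in limma 3.58.1 (R 4.3.3) by lmFit and trended eBayes, with Benjamini-Hochberg adjustment over 10940 genes and a call at an adjusted p of 0.05; 2-fold is a log2 difference of 1. C32 GFP replicate 3 was left out of the fit. The array number limits the precision, and the median SE was 0.08. The fit was checked on simulated data. Python 3.11.15, pandas 2.3.3 and matplotlib 3.10.9 were used for tables and plots.

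Named genes are FHL2, PMEL and NFYA, the 12 largest rises and falls among called genes without overlapping arrays (values under log2 4 set to 4), members of the lists, members of runs of neighbours, and the 5 largest each way in both the GFP and FHL2 shRNA arms. The members and lists were chosen with earlier results of these data known, and the chromosome shares and promoter elements after the data were seen. Gene order, chromosomes and promoters are from RefSeq, GRCh38.p14. Several list members, KIT and DCT among them, were not analysed here. Alternatives changed the filter, the floor, the scaling, the probe set that stands for a gene, the variance model, array weights and the arrays in the fit, added a block, or omitted 1 array.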

Additional observations from a re-analysis of the deposited data

Results flagged for a closer look

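For 7 of the genes with the largest line differences, the difference in the FHL2 shRNA arms departed from that in the GFP arms by log2 2 or more in limma's interaction test. The contrast is the line difference in the FHL2 shRNA arms minus that in the GFP arms. HGF gave 10.46, since A375M2 itself was near the bottom of the scale with the shRNAs. SERPINH1 gave -9.09, since A375M2 was high there. TXNIP gave 8.28, since C32 was high there. The collagen chain gene COL1A2 gave 2.03 and the matricellular gene THBS2 -3.88. PDK4 gave 3.15 and ERAP2 -2.21. A further 18 of the 27 rule-named genes had a called interaction under log2 2.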

How the results depend on the processing

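Genes called between the GFP arms numbered 8982 to 9575 over all alternatives and 9077 to 9386 with 1 array left out. At 2-fold the ranges were 4486 to 5504 and 4696 to 4752. Calls in the FHL2 shRNA arms ranged over 9576 to 10052 (9692 to 9890 with 1 array left out) and the interaction over 8516 to 8988 (8532 to 8709). Of 33 pathway lists, 17 to 18 had a median above that of all genes. Lower runs numbered 79 as reported, 191 with runs of 3 or more and 7 at 4-fold, by construction. With the replicate number as a block, 9318 genes were called, 4710 at 2-fold. Same-numbered arrays of C32 and A375M2 did not deviate together (correlations of -0.03 to 0.01, r = 0.00215 in the GFP arms). Pairing between the A375M2 arms was not examined, so whether the numbers pair samples there is not known.

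List medians that changed sign did so mostly with centred arrays: neural crest 0.02, receptor kinases 0.07, G1 and p53 0.20, ephrins 0.20, drug metabolism 0.19 and checkpoint genes 0.20. With quantile normalization, G1 and p53 was 0.13, ephrins 0.19, checkpoint 0.05 and keratinocyte markers 0.39. With the mean of all probe sets, G1 and p53 was 0.07, checkpoint 0.02, WNT 0.00 and Schwann markers -0.47, and with the most variable probe set G1 and p53 was 0.09 and Schwann markers -1.07. Fibroblast markers were -0.02 with no filter.

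Among named genes, FHL2 was 0.07 with centred arrays, NFYA 0.18, B2M 0.11 and LYZ 0.16. NFYA was 0.14 and LYZ 0.53 with quantile normalization. NFYA was also 0.05 with replicates 3 of A375M2 GFP and A375M2 PMEL left out, and -0.11 to 0.05 with 1 array left out. It was -0.58 with the mean of all probe sets and -1.39 with the most variable, both called. LYZ was 0.35 with a floor, 0.05 with array weights, 0.01 with the block and -1.03 to 0.95 with 1 array left out. SOX10 was -1.07 with the most variable probe set and -0.47 with the mean. NUTM2A-AS1 differed by -0.14, no longer called, with the floor. Except for the floor and omitted arrays, the cause was not tested. Low signal limits differences from values under log2 4, and 2 independent C32 arrays limit that group's spread.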
